A study of Triticum aestivum with 24 samples.

Results

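The genes described here lie in 4 blocks of neighbours near the end of the long arm of the group 1 chromosomes of bread wheat (Triticum aestivum). The blocks run from TraesCS1A02G422000 to TraesCS1A02G423600, from TraesCS1B02G448500 to TraesCS1B02G455000, from TraesCS1D02G412300 to TraesCS1D02G413900 and from TraesCS1D02G426000 to TraesCS1D02G427500. The last 2 are called the first and the second 1D block. The members are all deposited identifiers in these ranges, 111 of 105200, with 16 in the 1A block, 62 in the 1B block, 17 in the first 1D block and 16 in the second. The ranges were chosen from measured values, because runs of neighbours there had low levels under temperature+drought, so the comparison of temperature+drought with control is given as a description with no test.

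Leaf messenger RNA of the winter cultivar Alana was sequenced from 8 groups of plants with 3 biological replicates each, which gave 24 libraries. The treated groups were CO2+temperature+drought, temperature+drought, CO2+drought, CO2+temperature, drought, temperature and CO2, and plants without any of these treatments were the control. Drought meant a soil water content of 25 ± 5%, temperature meant up to 31 °C, and CO2 meant 700 ppm. All plants were of 1 genotype, and leaves 3 and 4 of the main tiller were taken at growth stage 61, the beginning of flowering. Whole leaf was used, so fewer cells of a type and less RNA per cell cannot be told apart. The identifiers carry no gene names in the files, so the tissue could not be checked against leaf markers and no function is given for any member.

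Bread wheat is a hexaploid whose A, B and D subgenomes carry related copies of most genes, so that chromosomes 1A, 1B and 1D form 1 homoeologous group. The distal ends of wheat chromosome arms are gene-rich, recombine often, and hold many tandemly duplicated and fast-evolving gene families, among them families with roles in stress and defence. Identifier numbers increase along each chromosome from the end of the short arm, so neighbouring numbers stand for neighbouring genes. Of the identifiers on each chromosome, 94.59% on 1A, 93.21% on 1B, and 90.74% and 93.71% on 1D come before the block. The sources used here do not state how the authors divided fragments among near-identical copies, so the level of a single copy is uncertain.

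Values are FPKM as deposited, by definition fragment counts scaled by transcript length and by the mapped fragments of the library. Whether the authors also scaled across libraries is not stated in the sources used here. Each library listed between 61757 and 64248 genes above 0, and the absolute depth was unknown. The typical ratio of a library to the mean library, its median-ratio factor, was 0.872 to 0.892 in the 6 libraries of temperature+drought and CO2+drought, against 1.05 to 1.06 in the other 18. The typical gene of those 2 groups thus stood 0.25 lower on the log2 scale. Scaling by the authors and a change in most genes cannot be told apart here. The labels of these 6 libraries also lack the letter R before the replicate number, which the other 18 carry. Whether they were processed apart from the others was not tested, and this limits every comparison that uses them. Dividing by 1 factor per library would not remove a difference that varied from gene to gene. Counts over all members that involve these groups are given from the deposited values and, where they moved, after dividing each library by its factor (rescaled). Counts in single runs and outside the blocks are rescaled only where stated. Of the 111 members, 59 had at least 1 FPKM in at least 3 libraries and were tested, 6 in the 1A block, 32 in the 1B block, 10 in the first 1D block and 11 in the second. Another 27 were listed at 0 in every library.

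In temperature+drought leaves, 34 of the 59 tested members averaged at most 50% of their control level, and 4 were at least double it. Of all 45359 genes tested, 12.5% were at most 50% of control and 3332 genes were at least double it. Rescaled, 33 members and 8.65% of all genes were at most 50% of control. At least double it were 4 members and 4737 of 45263 genes. The low members were 5 of 6 in the 1A block, 16 of 32 in the 1B block, 6 of 10 in the first 1D block and 7 of 11 in the second (6 of 11 rescaled). Outside the blocks, 7 of the 75 tested genes among the 20 identifiers on either side of each block met the same mark (4 of 76 rescaled). Between the 1D blocks, which are 116 identifiers apart, 4 of 48 tested genes did (3 of 48 rescaled). The median difference of temperature+drought to control on the log2(FPKM + 1) scale was -1.92 in the 1A block, -0.76 in the 1B block, -1.23 in the first 1D block and -1.16 in the second. Over all genes tested it was -0.19. These values chose the blocks, and nothing is read from them beyond the description.

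The low members were not spread evenly along the blocks. They formed 5 runs of at least 3 consecutive tested members at or below 50% of control, with 29 members in all. The runs span TraesCS1A02G422600 to TraesCS1A02G423100 (5 members), TraesCS1B02G449000 to TraesCS1B02G449400 (5), TraesCS1B02G454000 to TraesCS1B02G454900 (8), TraesCS1D02G412800 to TraesCS1D02G413400 (5) and TraesCS1D02G426500 to TraesCS1D02G427200 (6). The member nearest to the 50% mark was TraesCS1D02G427200, at 47.6% of control. The runs were chosen from these values, and no list test was made on them. The plot of differences along the blocks shows their positions.

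**Figure D1:**
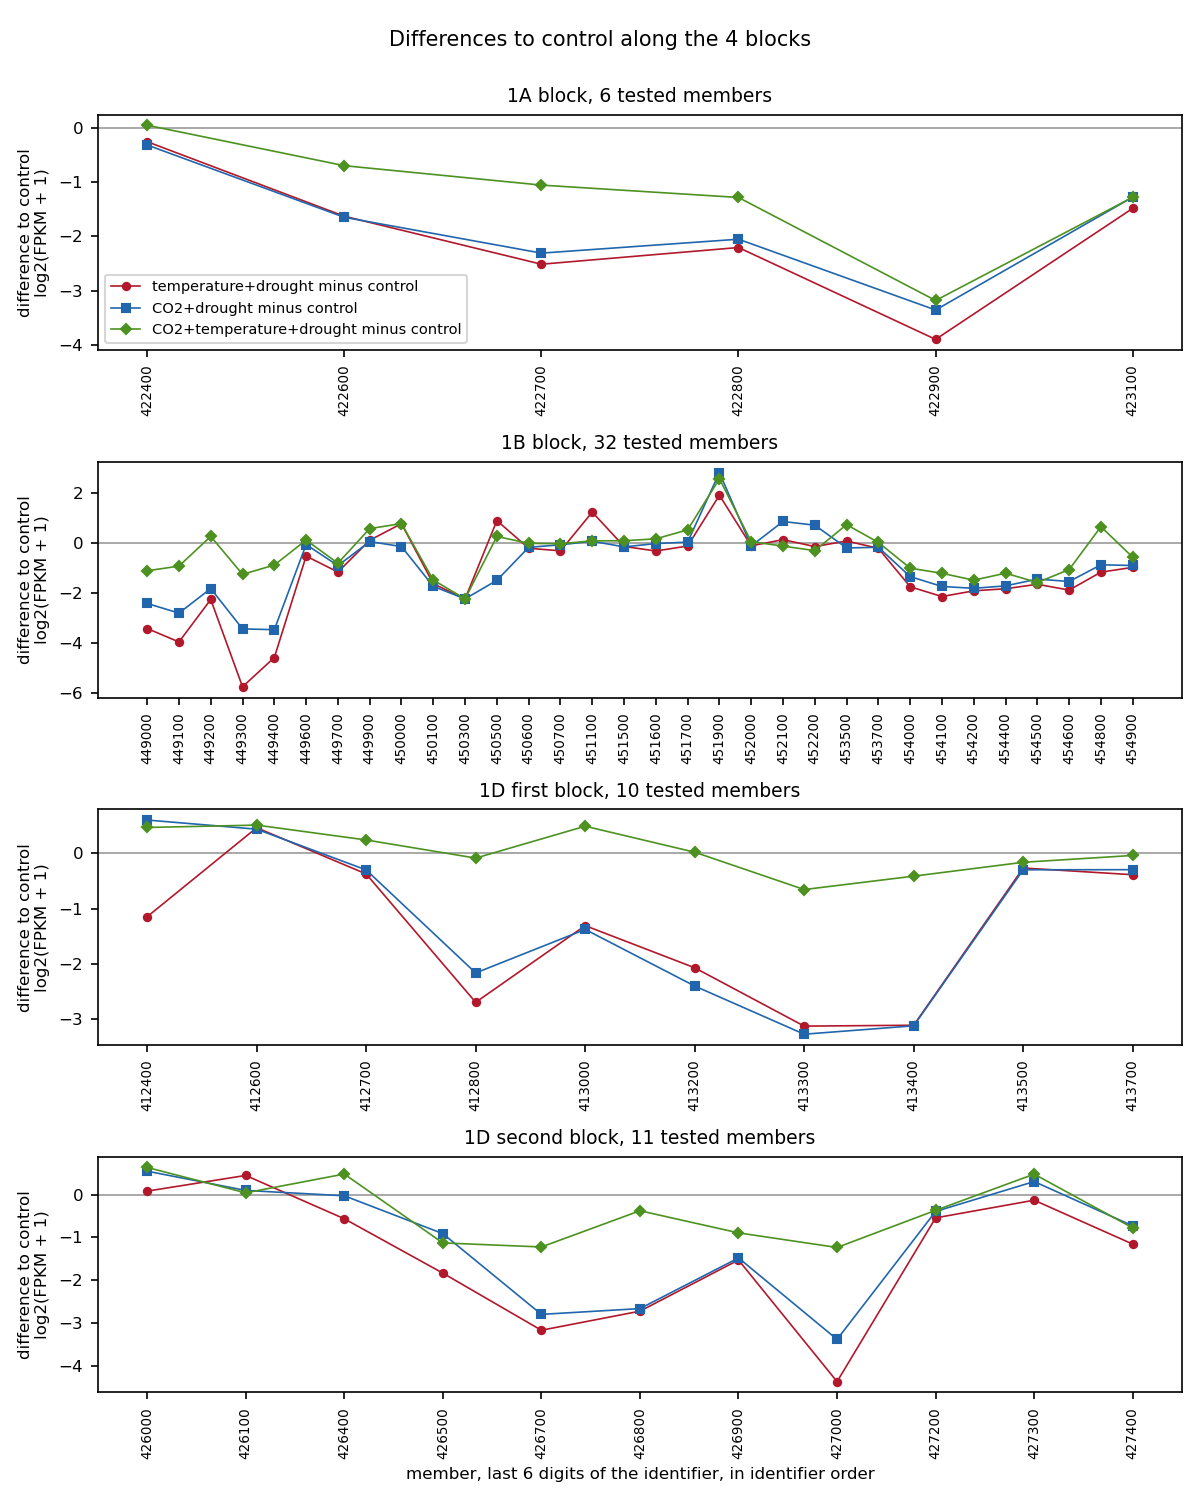
Difference of the mean log2(FPKM + 1) to control (vertical axis) for the 59 tested members in identifier order (horizontal axis), for temperature+drought, CO2+drought and CO2+temperature+drought. Temperature+drought and CO2+drought run together below 0 in the 5 runs, reaching -5.76 at TraesCS1B02G449300 under temperature+drought, while CO2+temperature+drought lies above both in most members of the TraesCS1B02G449000, TraesCS1D02G412800 and TraesCS1D02G426500 runs. In the TraesCS1A02G422600 and TraesCS1B02G454000 runs its mean level over the members also lies above both.

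The other treated groups differed in how much of this pattern they shared. At most 50% of control was reached by 20 members in CO2+temperature+drought (6.61% of all genes), by 31 in CO2+drought (10.5%), by 11 in CO2+temperature (6.9%), by 6 in drought (1.26%), by 18 in temperature (5.12%) and by 13 in CO2 (5.73%). Rescaled, the number in CO2+drought was 30 (6.94% of all genes). These 6 comparisons use the control libraries, which also entered the choice of members, so they carry no test. The map of all tested members shows the same values member by member.

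**Figure D2:**
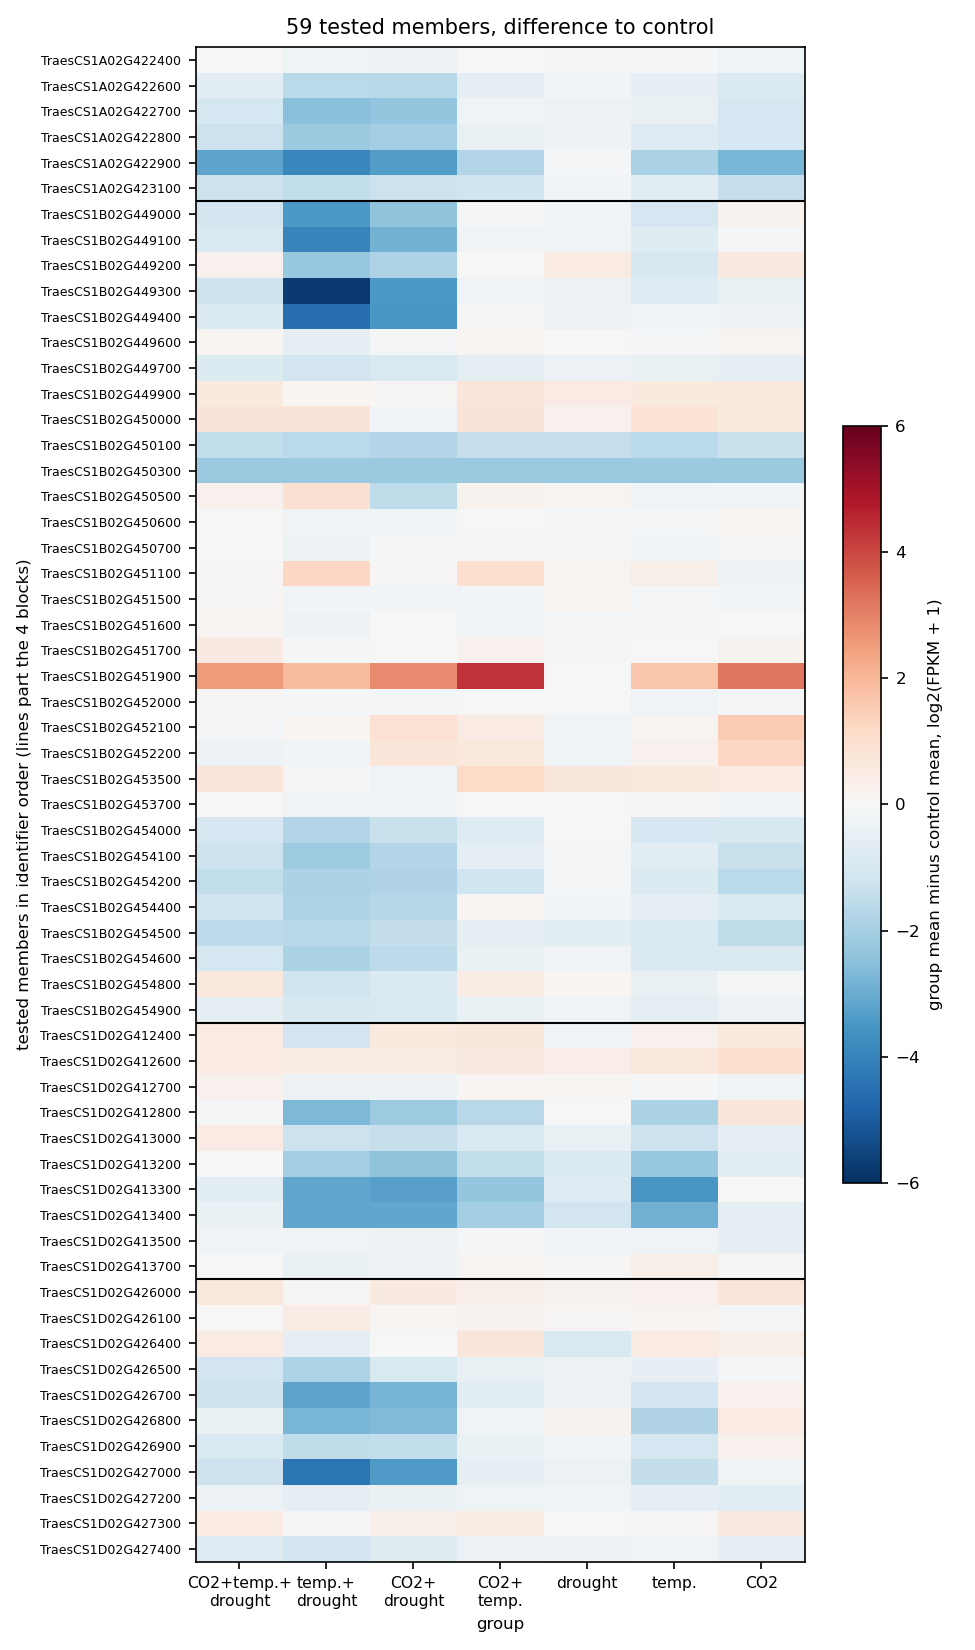
Group mean minus control mean on the log2(FPKM + 1) scale (colour) for the 59 tested members (rows, identifier order, lines part the 4 blocks) in the 7 treated groups (columns). Temperature+drought and CO2+drought share the darkest blue rows, drought alone is pale in most rows, and TraesCS1B02G451900 is red in 6 of the 7 columns.

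Comparisons that use neither the temperature+drought nor the control libraries were tested with limma on log2(FPKM + 1) across all 45359 genes. Adjusted p-values throughout are from limma with Benjamini-Hochberg adjustment over all genes tested, and calls were made below 0.05. In CO2+drought against drought, 35 members fell and 7 rose, where 36.5% of all genes fell and 12.7% rose. Rescaled, 27 members fell and 8 rose, against 19.8% and 21% of all genes. In CO2+drought against CO2, 30 members fell and 0 rose (32.2% and 5.93% of all genes), and rescaled 18 fell and 3 rose (10.5% and 10.8%). The median log2 change of the members was -0.57 and -0.52 in these 2 comparisons, against -0.19 over all genes in both. Among the 75 tested neighbours outside the blocks, 23 fell and 15 rose in CO2+drought against drought, and 18 fell and 6 rose against CO2.

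The effect of temperature added to CO2+drought was tested next. In CO2+temperature+drought against CO2+drought, 26 members rose and 2 fell, where 36.8% of all genes rose and 14.2% fell. Rescaled, 19 rose and 3 fell, against 19.5% and 22.9% of all genes. Among the 75 tested neighbours outside the blocks, 25 rose and 18 fell. In CO2+temperature+drought against CO2+temperature, 4 members rose and 13 fell (10.8% and 12.2% of all genes), and 7 and 17 of the 75 neighbours did. Without CO2+temperature+drought replicate 3, 22 members fell (11.8% of all genes), and without its replicate 2, or without CO2+temperature replicate 1 or 3, only 1 member rose. The drought effect at elevated CO2 was also compared between warm and cool plants, as the interaction of drought and temperature. It was positive in 18 members and negative in 3 (22.1% and 6.57% of all genes), and rescaled in 16 and 4 (9.67% and 10.9%). A positive value means that drought lowered the member less, or raised it more, with temperature than without it.

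In the comparisons without drought fewer members were called. In CO2+temperature against temperature, 8 members rose and 1 fell (7.19% and 6.51% of all genes), and without temperature replicate 3, 5 rose (5.56%) and 0 fell. In CO2+temperature against CO2, 9 rose and 6 fell (9.73% and 13.6%), and without CO2 replicate 2, 6 rose and 3 fell (9.86% of all genes fell). In both comparisons a larger share of the members than of all genes rose, and a smaller share fell. The counts were small, and this difference was not tested.

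The run from TraesCS1B02G449000 to TraesCS1B02G449400 held the most highly expressed low members of the 1B block. Its 5 members were low in temperature+drought and CO2+drought and averaged 85.3% to 103% of control in CO2+temperature, 77.4% to 139% in drought and 73.0% to 144% in CO2. In temperature they averaged 46.8% to 87.4% of control, with a median of 56.7%. TraesCS1B02G449300 had 28.5, 29.8 and 56.1 FPKM in CO2+temperature+drought, 0.438, 1.18 and 0.416 in temperature+drought and 5.67, 9.07 and 7.23 in CO2+drought. It had 86.5, 68 and 77.1 FPKM in CO2+temperature, 75.5, 62.4 and 72.3 in drought, 47, 55.4 and 50.3 in temperature, 66.6, 69.7 and 60.5 in CO2 and 88.8, 110.3 and 70.5 in control. All 3 temperature+drought libraries lay below all 3 CO2+drought libraries, and both groups lay below every other library. Its neighbour TraesCS1B02G449400 had 0.876, 2.47 and 2.49 FPKM in temperature+drought, 3.87, 5.88 and 5.91 in CO2+drought and 72.6, 76.8 and 54.8 in control. For this gene the temperature libraries, at 62.2, 51.2 and 65 FPKM, overlapped control.

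The fall in CO2+drought was seen against both single treatments. Relative to drought, all 5 members fell in CO2+drought, with log2 changes from -3.12 in TraesCS1B02G449400 to -2.28 in TraesCS1B02G449000. TraesCS1B02G449300 changed by -3.11 ± 0.22 (SE, adjusted p = 1.6e-09). Relative to CO2, all 5 changed by -3.16 to -2.35, and TraesCS1B02G449400 changed by -3.16 ± 0.23 (SE, adjusted p = 2.1e-08). Drought and CO2 alone therefore each had higher levels of these genes than the 2 together. No test of drought or CO2 against control was made.

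With temperature added, the same 5 members were higher. TraesCS1B02G449200 had 20.7, 29.2 and 56.7 FPKM in CO2+temperature+drought, 4.07, 6.43 and 4.22 in temperature+drought, 6.77, 7.08 and 6.78 in CO2+drought, 23.5, 29.4 and 26.4 in CO2+temperature and 25.6, 32.8 and 23.5 in control. Its CO2+temperature+drought libraries overlapped those of CO2+temperature and control and lay above every CO2+drought library. In CO2+temperature+drought against CO2+drought, all 5 members rose, with log2 changes from 1.31 to 2.59, and TraesCS1B02G449200 changed by 2.09 ± 0.28 (SE, adjusted p = 7.3e-06). Against CO2+temperature, 4 of the 5 fell, TraesCS1B02G449300 by -1.06 ± 0.22 (SE, adjusted p = 0.0014), while TraesCS1B02G449200 did not pass the test at 0.30 ± 0.28 (SE, adjusted p = 0.5). The level of 4 members under the triple treatment thus lay between those of CO2+drought and CO2+temperature.

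All 5 members had a positive interaction of drought and temperature at elevated CO2, from 1.65 to 2.65, and 5 of 5 were also called without CO2+temperature+drought replicate 3, the highest library of its group. For TraesCS1B02G449100, 19.2, 21.8 and 38.1 FPKM in CO2+temperature+drought stood against 44.6, 39 and 42.9 in CO2+temperature, while 5.09, 7.40 and 6.02 FPKM in CO2+drought stood against 50.4, 46.4 and 43.1 in CO2. Its interaction was 2.02 ± 0.29 (SE, adjusted p = 4.9e-05). In CO2+temperature against temperature, TraesCS1B02G449000 and TraesCS1B02G449200 rose, by 0.87 and 0.93. Neither was called without temperature replicate 3 or without CO2+temperature replicate 1, and TraesCS1B02G449200 was also not called without CO2+temperature replicate 2 or 3.

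**Figure D3:**
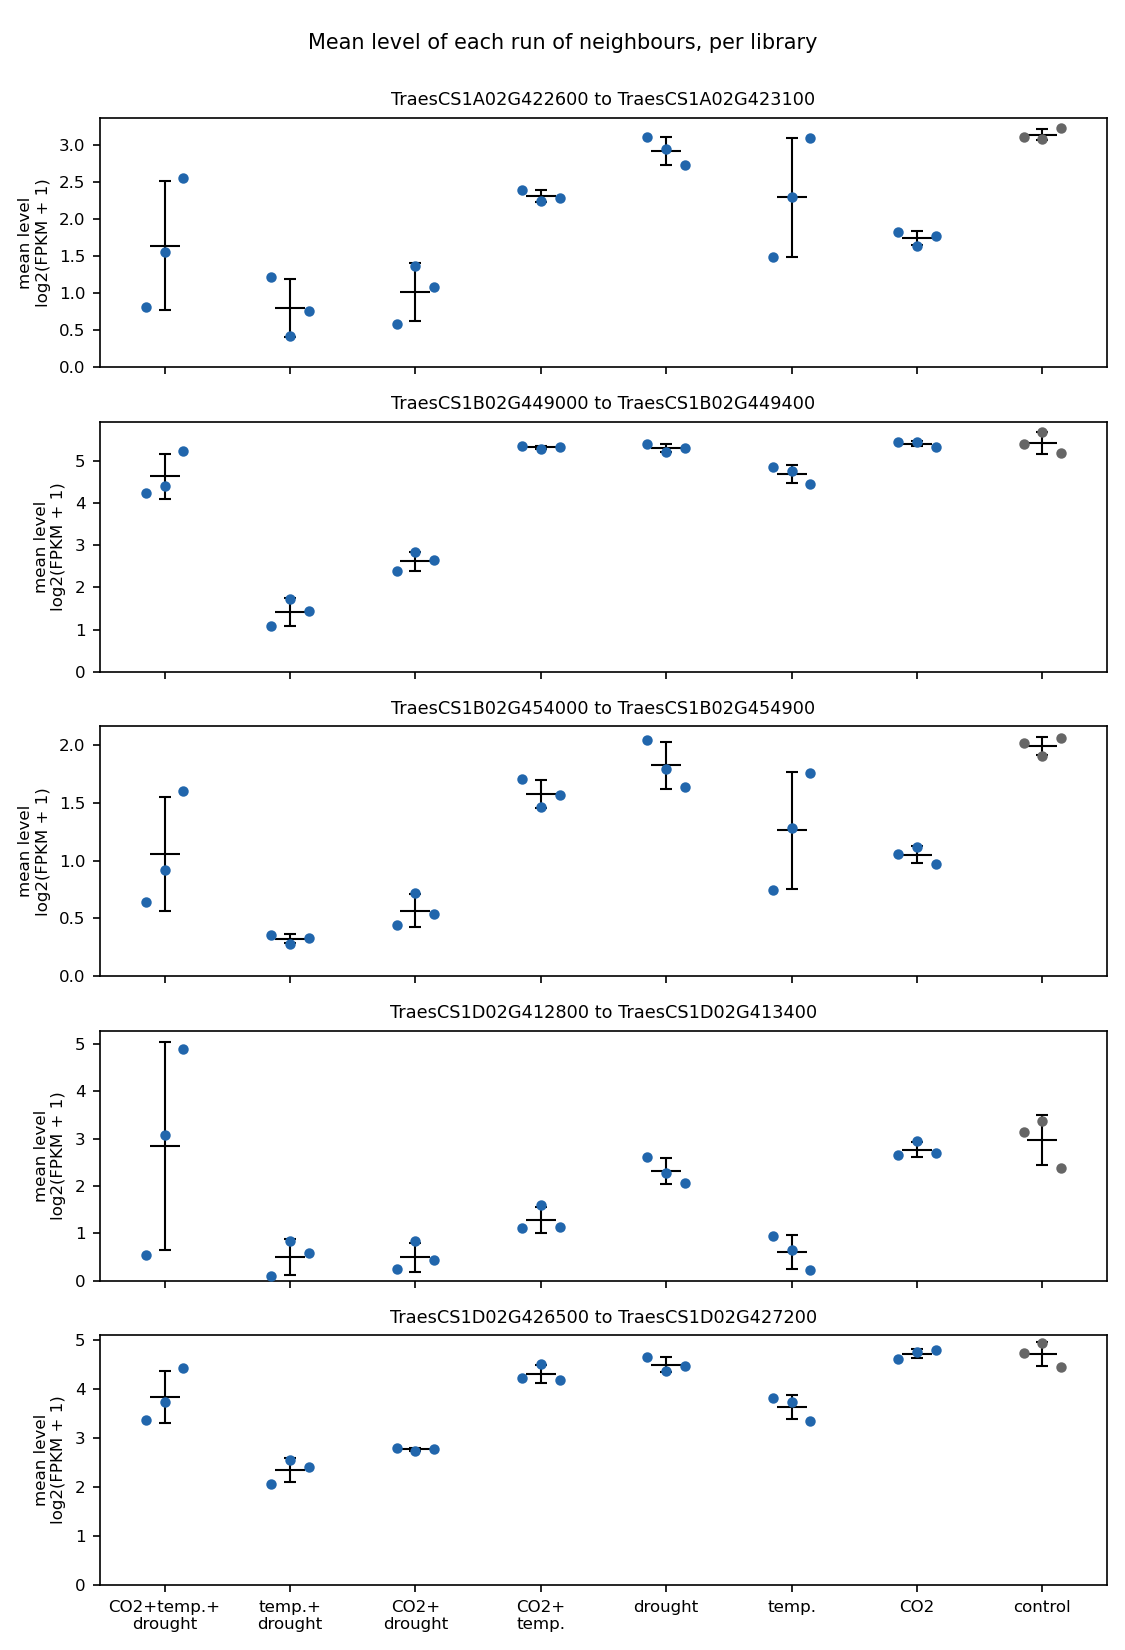
Mean log2(FPKM + 1) level of the members of each of the 5 runs (vertical axis) in each library (points) of the 8 groups (horizontal axis), with the group mean and SD (n = 3) as bars. Temperature+drought and CO2+drought are low in every run, and CO2 is low in the TraesCS1A02G422600 and TraesCS1B02G454000 runs. The temperature mean lies below the control mean in every run, and furthest below it in the TraesCS1D02G412800 run. The 3 CO2+temperature+drought libraries are spread most widely in the TraesCS1D02G412800 run.

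The run in the second 1D block, from TraesCS1D02G426500 to TraesCS1D02G427200, had a like course in its middle 4 members. TraesCS1D02G427000 had 14.6, 19.4 and 31.1 FPKM in CO2+temperature+drought, 0.544, 2.41 and 1.84 in temperature+drought and 3.74, 4.21 and 3.72 in CO2+drought. It had 36.3, 36.2 and 34.6 FPKM in CO2+temperature, 42.5, 37.2 and 36.7 in drought, 23.7, 21.5 and 10.9 in temperature, 44.2, 42.7 and 44 in CO2 and 53.9, 57.9 and 40.1 in control. The temperature+drought and CO2+drought libraries lay below all others, and the temperature libraries lay below drought, CO2 and control. In CO2+drought against CO2, TraesCS1D02G427000 changed by -3.19 ± 0.27 (SE, adjusted p = 1.5e-07), TraesCS1D02G426800 by -3.17 ± 0.42 (SE, adjusted p = 1.9e-05) and TraesCS1D02G426700 by -3.08 ± 0.27 (SE, adjusted p = 2.3e-07). The lowly expressed TraesCS1D02G426900, at 0, 0.167 and 0.0569 FPKM in CO2+drought and 1.88, 3.21 and 2.81 in CO2, also fell, by -1.74.

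In CO2+temperature+drought against CO2+drought, 3 of the 6 members rose, namely TraesCS1D02G426700, TraesCS1D02G426800 and TraesCS1D02G427000, the last by 2.15 ± 0.27 (SE, adjusted p = 3.7e-06). Rescaled, these 3 rose and TraesCS1D02G426500 fell, by -0.46 (limma, Benjamini-Hochberg adjusted p = 0.013). The share of all genes that rose in this comparison was 36.8% as deposited and 19.5% rescaled. TraesCS1D02G426800 had the widest spread under the triple treatment, with 17, 27.8 and 75.2 FPKM, against 6.92, 5.47 and 5.59 FPKM in CO2+drought, 35.4, 37.9 and 35.4 in CO2+temperature and 40.4, 51.8 and 38.4 in control. Its replicate 3 lay above all control libraries and its replicate 1 below them. The interaction of drought and temperature was positive in 4 of the 6, with 3.04 in TraesCS1D02G426800 and 2.43 in TraesCS1D02G427000, and these 4 were also called without CO2+temperature+drought replicate 3. Against CO2+temperature, 1 of the 6 fell in the triple treatment, and 4 fell without that library. In CO2+temperature against temperature, TraesCS1D02G426800 rose by 1.57 ± 0.42 (SE, adjusted p = 0.015), and it changed by 0.96 (limma, Benjamini-Hochberg adjusted p = 0.11) without temperature replicate 3, the lowest library of that group at 4.38 FPKM.

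The ends of this run behaved otherwise. TraesCS1D02G426500 was the most abundant member of all blocks, with 221, 255 and 324 FPKM in CO2+temperature+drought, 182, 146 and 156 in temperature+drought, 328, 282 and 309.7 in CO2+drought, 391, 453 and 441 in CO2+temperature and 465, 658 and 625 in control. Here temperature+drought lay below the triple treatment, which lay below CO2+temperature. It fell in CO2+drought against CO2 by -0.80 ± 0.14 (SE, adjusted p = 0.00032) and in CO2+temperature+drought against CO2+temperature by -0.70 ± 0.14 (SE, adjusted p = 0.0014), and its interaction did not pass the test at 0.10 ± 0.20 (SE, adjusted p = 0.76). Its fall in CO2+drought against drought, -0.57 ± 0.14 (SE, adjusted p = 0.0027), was not called after rescaling (limma, Benjamini-Hochberg adjusted p = 0.068). TraesCS1D02G427200, with 0.672, 1.07 and 0.638 FPKM in temperature+drought and 1.97, 2.15 and 0.869 in control, overlapped between groups and was called in none of the 7 tested comparisons.

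In the 1A run, from TraesCS1A02G422600 to TraesCS1A02G423100, low levels extended to CO2 alone. TraesCS1A02G422900 had 0.160, 1.06 and 4.62 FPKM in CO2+temperature+drought, 1.24, 0 and 0.355 in temperature+drought and 0.308, 1.90 and 1.46 in CO2+drought. It had 7.14, 4.36 and 4.93 FPKM in CO2+temperature, 21.6, 19.7 and 16.4 in drought, 0.627, 6.06 and 16.4 in temperature, 2.43, 2.13 and 2.18 in CO2 and 18.7, 19.2 and 24.2 in control. The CO2 mean was 10.9% of control with no overlap, the drought libraries overlapped control, and the temperature libraries ranged from near 0 to near control. Relative to control, CO2 stood at 10.9% to 50.4% across the 5 members of the run, with a median of 42.8%.

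All 5 members of the 1A run fell relative to drought in CO2+drought, with log2 changes from -3.26 to -1.12, and TraesCS1A02G422900 changed by -3.26 ± 0.60 (SE, adjusted p = 0.00018). Against CO2, where levels were already lower, 2 fell: TraesCS1A02G422600 by -0.80 ± 0.25 (SE, adjusted p = 0.015) and TraesCS1A02G422700 by -1.31 ± 0.45 (SE, adjusted p = 0.028). Neither was called after rescaling (limma, Benjamini-Hochberg adjusted p = 0.08 and 0.074). As deposited, 32.2% of all genes fell in that comparison. TraesCS1A02G422700 had 0.963, 3.67 and 10.8 FPKM in CO2+temperature+drought against 0.301, 1.83 and 1.17 in CO2+drought, and the smallest value of the first group lay within the range of the second. It rose by 1.25 ± 0.45 (SE, adjusted p = 0.027), and without CO2+temperature+drought replicate 3 it changed by 0.60 (limma, Benjamini-Hochberg adjusted p = 0.21). It was also not called after rescaling (limma, Benjamini-Hochberg adjusted p = 0.055), without CO2+temperature+drought replicate 2 or without CO2+drought replicate 1. TraesCS1A02G422600 rose by 0.95 ± 0.25 (SE, adjusted p = 0.0036) in the same comparison and was the 1 member of the 5 called after rescaling. None of the 5 had a called interaction, with values from -0.80 to 0.64.

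The second 1B run, from TraesCS1B02G454000 to TraesCS1B02G454900, had a course like that of the 1A run at lower levels. TraesCS1B02G454100 had 0.257, 0.805 and 3.24 FPKM in CO2+temperature+drought, 0.167, 0.0273 and 0.158 in temperature+drought and 0.206, 0.937 and 0.375 in CO2+drought. It had 2.05, 2.28 and 2.68 FPKM in CO2+temperature, 4.47, 3.64 and 2.72 in drought, 0.803, 2.44 and 3.82 in temperature, 1.20, 1.10 and 0.653 in CO2 and 4.38, 3.61 and 3.89 in control. Drought overlapped control, and the CO2 libraries lay below both. All 8 members fell in CO2+drought against drought, with log2 changes from -1.74 to -0.69, and all 8 were also called after rescaling. Against CO2, 4 of the 8 fell, and 3 after rescaling. The share of all genes that fell there was 32.2% as deposited and 10.5% rescaled. Over the 24 libraries, the mean level of this run and that of the 1A run had a Pearson correlation of 0.975, a description over libraries that share groups and scaling. Both runs were chosen as low in temperature+drought relative to control, and those libraries are among the 24. Part of a positive correlation thus follows from the choice.

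TraesCS1B02G454800 stood out in that run, a member singled out after its values were seen. It had 7.70, 9.10 and 12.3 FPKM in CO2+temperature+drought, 1.97, 1.99 and 1.97 in temperature+drought, 3.08, 2.59 and 2.33 in CO2+drought, 9.16, 7.21 and 8.28 in CO2+temperature, 4.22, 3.78 and 4 in temperature and 6.81, 5.87 and 4.66 in control. Its triple-treatment libraries lay above all control libraries, while the temperature+drought and CO2+drought libraries lay below them. It rose in CO2+temperature+drought against CO2+drought by 1.53 ± 0.13 (SE, adjusted p = 4.3e-08) and had an interaction of 0.99 ± 0.19 (SE, adjusted p = 0.00078). Its neighbour TraesCS1B02G454500, with 0, 0 and 0.158 FPKM in CO2+temperature+drought against 1.71, 0.607 and 1.14 in CO2+temperature, and 0, 0.239 and 0.244 in CO2+drought against 0.0315, 0.193 and 0.0641 in CO2, had the opposite sign at -1.08 ± 0.35 (SE, adjusted p = 0.026), a call lost without any 1 of 6 of the 12 libraries compared.

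The run in the first 1D block, from TraesCS1D02G412800 to TraesCS1D02G413400, was low in CO2+temperature and in temperature. TraesCS1D02G413300 had 0.662, 13.8 and 45.2 FPKM in CO2+temperature+drought, 0.358, 1.17 and 1.25 in temperature+drought and 0.196, 2.06 and 0.333 in CO2+drought. It had 1.75, 3.03 and 2.22 FPKM in CO2+temperature, 10.4, 7.45 and 8.10 in drought, 1.02, 0.341 and 0.124 in temperature, 14.3, 17 and 14.8 in CO2 and 18.4, 22.4 and 8.72 in control. Temperature libraries lay below all drought, CO2 and control libraries, and CO2 overlapped control. Relative to control, the 5 members stood at 14.1% to 25.1% in CO2+temperature and at 2.99% to 14.2% in temperature. In drought they stood at 43.3% to 94.6% of control, with a median of 52.4%, and in CO2 at 53.4% to 171%, with a median of 62.7%.

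In CO2+temperature against CO2, TraesCS1D02G412800 fell by -2.38 ± 0.53 (SE, adjusted p = 0.0029) and TraesCS1D02G413300 by -2.31 ± 0.71 (SE, adjusted p = 0.024), and the other 3 did not pass the test. TraesCS1D02G413300 was not called in that comparison with a pseudocount of 0.1 or without any 1 of 5 of the 6 libraries compared, and its highest adjusted p in limma with Benjamini-Hochberg adjustment was 0.072. Relative to CO2, 3 of the 5 fell in CO2+drought, with -3.27 ± 0.71 (SE, adjusted p = 0.0015) in TraesCS1D02G413300 and -2.89 ± 0.53 (SE, adjusted p = 0.00035) in TraesCS1D02G412800. Relative to drought, 3 of the 5 fell, and 2 after rescaling. As deposited, 32.2% of all genes fell in CO2+drought against CO2 and 36.5% against drought.

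The 3 libraries of CO2+temperature+drought did not resemble each other in this run. TraesCS1D02G412800 had 0.592, 5.82 and 21 FPKM there, against 0.413, 0.666 and 0.340 in CO2+drought, 1.07, 0.967 and 1.23 in CO2+temperature and 6.08, 7.70 and 3.61 in control. TraesCS1D02G413200 had 0, 6.90 and 33.4 FPKM, and TraesCS1D02G413400 had 1.09, 14.2 and 53.3 FPKM. In each of these replicate 1 lay below every control library and replicate 3 above every control library. The mean level of the run in that group was 2.84 ± 2.19 on the log2(FPKM + 1) scale, against 2.96 ± 0.52 in control (SD, n = 3 each).

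All 5 members rose in CO2+temperature+drought against CO2+drought, by 1.87 to 2.71, and 4 of the 5 without CO2+temperature+drought replicate 3. TraesCS1D02G413300 changed by 2.62 ± 0.71 (SE, adjusted p = 0.0049) and by 1.55 without that library (limma, Benjamini-Hochberg adjusted p = 0.038). In a fit to only these 6 libraries, where the spread of the other groups does not enter, none of the 4 named members (TraesCS1D02G412800, TraesCS1D02G413200, TraesCS1D02G413300 and TraesCS1D02G413400) was called, with limma Benjamini-Hochberg adjusted p from 0.1 to 0.15. The interaction of drought and temperature was positive in all 5, from 2.32 to 4.93, and all 5 were also called without replicate 3. Against CO2+temperature, TraesCS1D02G412800 rose by 1.57 ± 0.53 (SE, adjusted p = 0.036) and by 0.66 without replicate 3 (limma, Benjamini-Hochberg adjusted p = 0.23), and 0 of the 5 members were called without that library. The call of TraesCS1D02G412800 there was lost without any 1 of 5 of the 6 libraries compared.

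**Figure D4:**
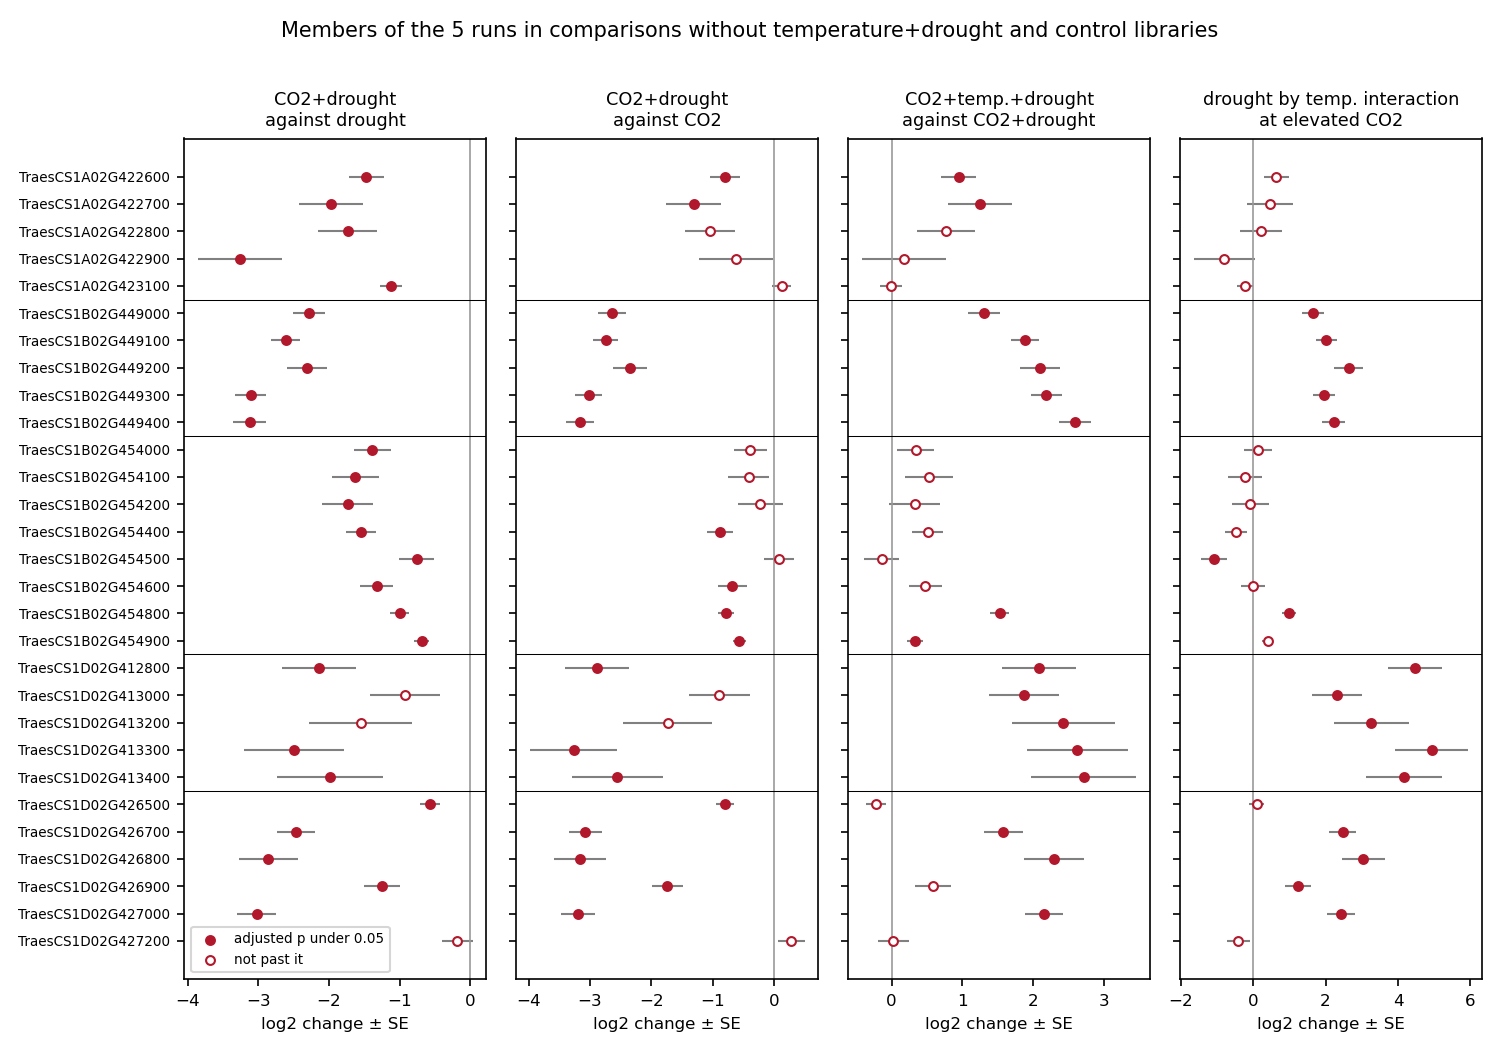
Log2 change with its SE (horizontal axes) of the 29 members of the 5 runs (rows, lines part the runs) in 4 of the 7 tested comparisons, with filled points at an adjusted p under 0.05. Members of the TraesCS1B02G449000 run lie left of 0 in both CO2+drought comparisons and right of 0 in the other 2 panels, while none of the 1A members is filled in the interaction panel.

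The order of replicates was shared across the runs in some groups. CO2+temperature+drought replicate 3 was the highest of its group in 29 of 29 run members and replicate 1 the lowest in 28. Drought replicate 1 was the highest of its group in 26 of 29. In the temperature group the order turned between runs. Temperature replicate 3 was the highest in 5 of 5 members of the 1A run and 6 of 8 of the second 1B run, and the lowest in 5 of 5 of the first 1D run. TraesCS1A02G422700, for example, had 3.13, 6.71 and 11.3 FPKM in temperature, and TraesCS1D02G412800 had 1.25, 0.828 and 0.380 FPKM in the same 3 libraries. The order of replicates was not counted over all genes tested, so it cannot be said whether it is particular to these runs. The part of single plants or libraries in these results was not tested.

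Between its 2 low runs, the 1B block held members that were higher in other groups. TraesCS1B02G451900 had 42, 41.6 and 25.4 FPKM in CO2+temperature+drought, 12.3, 34.7 and 24.7 in temperature+drought and 24, 68.7 and 45.1 in CO2+drought. It had 133, 114 and 121 FPKM in CO2+temperature, 5.33, 4.38 and 5.26 in drought, 18.1, 18.1 and 19.1 in temperature, 51.8, 55 and 53.8 in CO2 and 5.86, 5.62 and 4.09 in control. Drought overlapped control, and every other treated library lay above both. The gene rose in CO2+drought against drought by 2.85 ± 0.30 (SE, adjusted p = 4.1e-07), in CO2+temperature against temperature by 2.67 ± 0.30 (SE, adjusted p = 3.3e-06) and in CO2+temperature against CO2 by 1.18 ± 0.30 (SE, adjusted p = 0.0084).

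TraesCS1B02G451900 fell in CO2+temperature+drought against CO2+temperature, by -1.76 ± 0.30 (SE, adjusted p = 0.00028). Its change in CO2+drought against CO2, -0.34 ± 0.30 (SE, adjusted p = 0.4), did not pass the test. The interaction was -1.43 ± 0.43 (SE, adjusted p = 0.018), and without CO2+drought replicate 2 it was -1.08 (limma, Benjamini-Hochberg adjusted p = 0.055). TraesCS1B02G452100 and TraesCS1B02G452200 were highest in CO2. TraesCS1B02G452100 had 26.4, 29.4 and 35.4 FPKM in CO2+temperature+drought, 59.7, 62.7 and 60.1 in CO2+drought, 45, 50.7 and 47.2 in CO2+temperature, 28.4, 29.5 and 28.5 in drought and 92.7, 105 and 93.6 in CO2. Its CO2 libraries lay above those of all other groups. It rose in CO2+drought against drought by 1.05 ± 0.15 (SE, adjusted p = 1.7e-05) and fell in CO2+temperature+drought against CO2+drought by -0.99 ± 0.15 (SE, adjusted p = 3.5e-05), and TraesCS1B02G452200 fell in CO2+temperature+drought against CO2+drought by -1.02.

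TraesCS1B02G451100 was high where temperature was combined with drought or with CO2, but not with both. It had 13.4, 10.6 and 10.8 FPKM in CO2+temperature+drought, 28.2, 25.2 and 27.2 in temperature+drought, 22.6, 23.8 and 22.7 in CO2+temperature, 10.5, 13.2 and 19.7 in temperature and 9.64, 11.7 and 11.4 in control. The temperature+drought and CO2+temperature libraries lay above all those of the other groups. It rose in CO2+temperature against CO2 by 1.32 ± 0.16 (SE, adjusted p = 1e-05) and fell in CO2+temperature+drought against CO2+temperature by -0.94 ± 0.16 (SE, adjusted p = 0.00027), with an interaction of -1.31 ± 0.23 (SE, adjusted p = 0.00032).

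**Figure D5:**
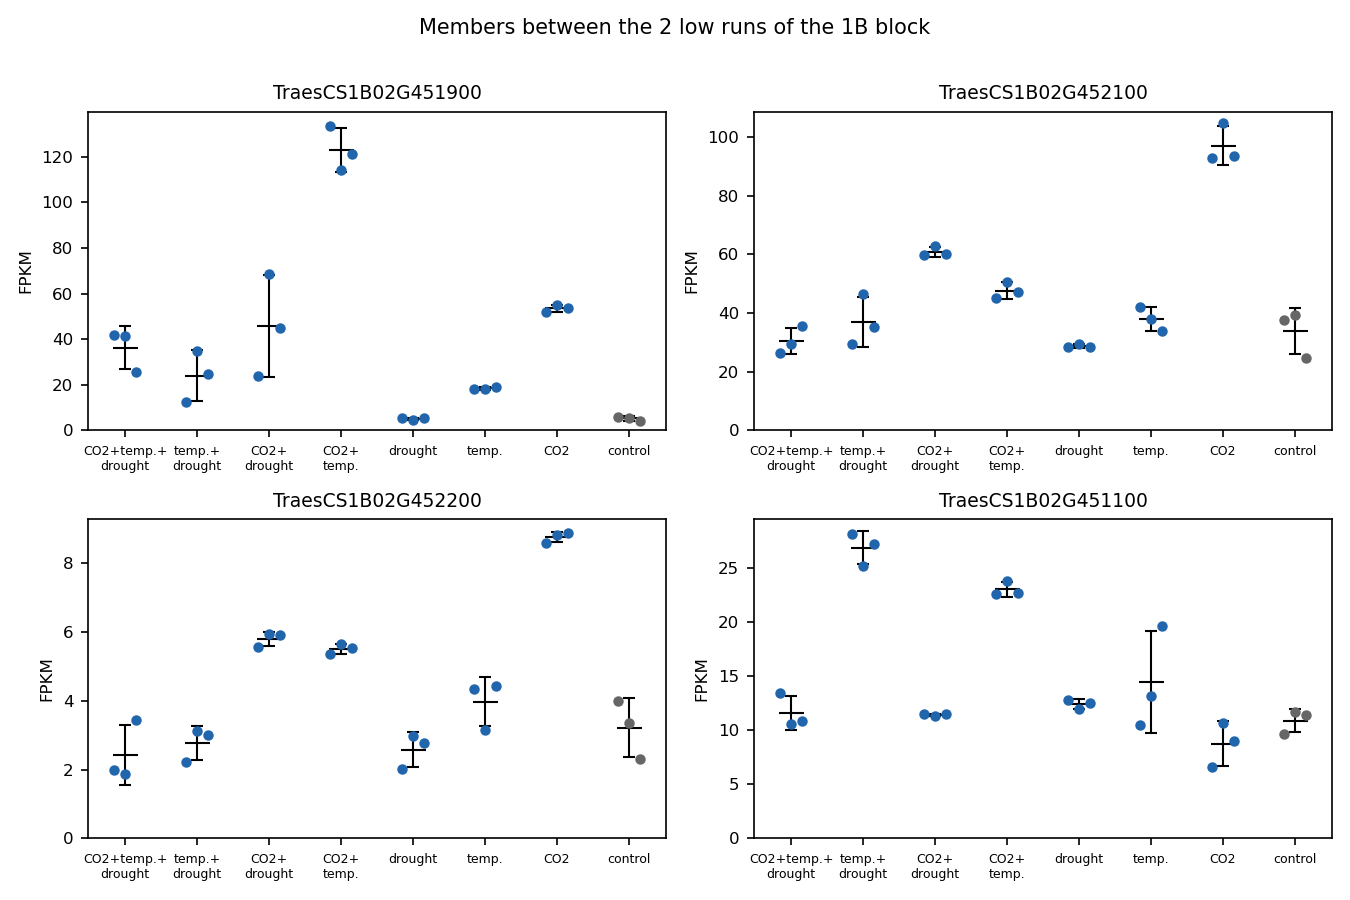
FPKM (vertical axes) of 4 members of the 1B block in each library (points) of the 8 groups (horizontal axes), with the group mean and SD (n = 3) as bars. TraesCS1B02G451900 is highest in CO2+temperature, TraesCS1B02G452100 and TraesCS1B02G452200 are highest in CO2, and TraesCS1B02G451100 is highest in temperature+drought and CO2+temperature.

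Other members of the 1B block were singled out after their values were seen. TraesCS1B02G450300 was listed at 0 in all 21 treated libraries and had 3.53, 3.70 and 3.99 FPKM in control. Its neighbour TraesCS1B02G450100 had 0.124, 0.274 and 0.264 FPKM in temperature+drought and 0.358, 0.343 and 0.681 in drought, against 2.76, 2.72 and 2.90 in control, and every treated library lay below every control library. Both members count among those at or below 50% of control in all 7 treated groups. TraesCS1B02G450300 passed the filter only through its control libraries. Its place in those counts was therefore fixed in advance, and it could not be called in any tested comparison. TraesCS1B02G450500 had 42.7, 19.4 and 24.3 FPKM in temperature+drought and 6.86, 2.76 and 4.29 in CO2+drought, against 13.9, 16.3 and 12.7 in control, and so stood above control in the first and below it in the second.

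Members outside the runs in the other blocks mostly stood near control. TraesCS1A02G422400, the first tested member of the 1A block, had 2.36, 2.50 and 3.21 FPKM in temperature+drought and 3.52, 3.02 and 3.65 in control. In the first 1D block, TraesCS1D02G413700 had 5.67, 5.84 and 5.37 FPKM in temperature+drought and 6.33, 7.83 and 9 in control. Its falls in CO2+drought, -0.38 against drought and -0.37 against CO2, were not called after rescaling (limma, Benjamini-Hochberg adjusted p = 0.24 and 0.36). TraesCS1D02G412400 had 0.0892, 0.0877 and 0.145 FPKM in temperature+drought, 1.88, 3.52 and 2.99 in CO2+drought, 1.27, 1.03 and 0.983 in drought and 1.30, 1.57 and 1.49 in control. It was thus low in temperature+drought but rose in CO2+drought against drought by 0.84 ± 0.22 (SE, adjusted p = 0.004).

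In the second 1D block, TraesCS1D02G426400 had 2.51, 5.21 and 5.11 FPKM in temperature+drought, 7.10, 6.20 and 5.97 in CO2+drought, 2.65, 3.08 and 3.21 in drought and 7.19, 5.80 and 6.71 in control. Its mean was lowest in drought, and it rose in CO2+drought against drought by 0.90 ± 0.16 (SE, adjusted p = 0.00013). The neighbouring TraesCS1D02G426000 had 20.7, 19.6 and 16.3 FPKM in CO2+temperature+drought against 17.3, 13.5 and 14.9 in CO2+temperature, and it rose there by 0.29 ± 0.10 (SE, adjusted p = 0.047), which was not called after rescaling (limma, Benjamini-Hochberg adjusted p = 0.051) or without any 1 of 4 of the 6 libraries compared. TraesCS1D02G426100 had 7.61, 8.08 and 7.05 FPKM in temperature+drought and 5.71, 5.12 and 5.01 in control, with no overlap. It rose in CO2+temperature against CO2 by 0.34 ± 0.11 (SE, adjusted p = 0.034), a call lost without any 1 of 4 of the 6 libraries compared.

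Most of the first and last members of the blocks were listed at 0. TraesCS1A02G422000, TraesCS1B02G448500, TraesCS1B02G455000, TraesCS1D02G412300 and TraesCS1D02G427500 were listed at 0 in every library, and TraesCS1A02G423600 and TraesCS1D02G413900 reached at most 0.257 and 0.171 FPKM. Just outside, TraesCS1D02G414000 and TraesCS1D02G425900 were also listed at 0 in every library. TraesCS1A02G421900 had 0.864, 0.449 and 0.579 FPKM in temperature+drought and 0.992, 1.62 and 1.76 in control. TraesCS1A02G423700 had 2.73, 2.32 and 1.97 FPKM in temperature+drought and 4.49, 4.90 and 4.74 in control. As deposited, both neighbours of the 1A block were lower in temperature+drought without overlap, but rescaled TraesCS1A02G421900 overlapped, with 0.979 in temperature+drought replicate 1 and 0.945 in control replicate 1.

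TraesCS1B02G448400 had 2.41, 2.40 and 1.77 FPKM in temperature+drought and 1.83, 2.09 and 1.56 in control, and the groups overlapped as deposited but not rescaled, where temperature+drought was higher. TraesCS1B02G455100, next to the other end of the 1B block, had 21, 8.17 and 14.6 FPKM in temperature+drought, 12.1, 7.76 and 9.91 in CO2+temperature and 59.9, 55.2 and 63.2 in control. It was lower than control in both without overlap, but its course differed from that of the adjoining TraesCS1B02G454000 run. The gene averaged 16.7% of control in CO2+temperature and 47.7% in CO2+drought (56.3% rescaled). The medians of the run were 57.2% in CO2+temperature and 13.6% in CO2+drought. TraesCS1D02G412200 had 283, 314 and 283 FPKM in temperature+drought against 94.8, 97.5 and 102 in control, all 3 treated libraries above control, and TraesCS1D02G427700 had 0.887, 0.799 and 1.06 FPKM in temperature+drought and 0.942, 1.31 and 1.10 in control, with overlap.

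Some genes outside the blocks followed the same course. Likeness was measured as the Pearson correlation over 24 libraries with the mean standardised profile of the 15 members that averaged at least 5 FPKM in control and at most 25% of that in temperature+drought. Most alike was TraesCS1A02G419100, at 0.970, also on the distal part of 1A. It had 32.2, 48.1 and 99.9 FPKM in CO2+temperature+drought, 6.01, 7.46 and 5.79 in temperature+drought, 6.28, 6.78 and 6.41 in CO2+drought, 37.8, 33.9 and 20.01 in temperature and 68.2, 81.4 and 59.7 in control. Next were TraesCS2D02G199100 at 0.949 and TraesCS6D02G056600 at 0.947. Of the 100 most alike genes, 14 lay on 1A, 1B or 1D, as did 13.1% of the 45300 genes that could be ranked. Among the runs themselves, the correlation of mean levels was 0.956 between the TraesCS1B02G449000 and TraesCS1D02G426500 runs and lowest, at 0.520, between the 1A run and the TraesCS1D02G412800 run. All runs were chosen as low in temperature+drought relative to control, so part of each positive correlation follows from the choice.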

How the data were processed

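FPKM values for 105200 genes in 24 leaf libraries were used as the authors deposited them. Poly-A RNA libraries were sequenced as paired ends, per the labels. The submitters' processing notes name Trim Galore 0.4.1, Cuffdiff, HISAT2 and DESeq2, without roles, and the sources used here do not give the build, the annotation or the scaling across libraries. Counts were not used here, so no depth is known and no counting intervals are given. Among low values (under 0.3 FPKM), the value of 1 fragment relative to control replicate 1 ranged from 0.884 to 1.15, and 11.0% to 13.7% of low genes in a library held that ratio. Genes at exactly 0 FPKM are said to be listed at 0, since a failed estimate would look the same.

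Values were transformed as log2(FPKM + 1), which understates the change of low genes, and limma 3.58.1 in R 4.3.3 was fitted with a mean-variance trend and 1 coefficient per group to all 24 libraries. The 45359 genes that reached 1 FPKM in 3 or more libraries were tested, two-sided, with Benjamini-Hochberg adjustment over all of them, and the code was tested on simulated data. Replicates are biological per the labels, and whether they were separate plants, pots or chambers is not given there. The 7 comparisons tested shared no library with temperature+drought or control, because those 2 groups chose the members. The members and lists were chosen with earlier results of these data known. Comparisons that share libraries, such as CO2+drought against drought and against CO2, are not independent of each other.

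Named members were, in each block and among those with at least 5 FPKM in the higher of the 2 groups, up to 5 with the most negative and 2 with the most positive difference of temperature+drought to control. In each tested comparison, up to 2 called members with the largest rise and 2 with the largest fall were added, with the first and last member of each block, the nearest identifier outside it, and the 3 most alike genes. Members named beyond this rule were chosen after their values were seen. Alternatives were a pseudocount of 0.1, no filter, rescaled libraries, the replicate number as a block, library quality weights, a fit restricted to the libraries compared, and leaving out each library in turn. In the RefSeq gene table for assembly IWGSC CS RefSeq v2.1, 0 of the deposited identifiers were found, so no names, functions or sequences are given.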

Additional observations from a re-analysis of the deposited data

Results flagged for a closer look

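The effect of drought at elevated CO2 differed between plants with and without temperature in 21 of 59 tested members, by the interaction in limma with Benjamini-Hochberg adjustment. It was positive in 18 and negative in 3, where it was positive in 22.1% and negative in 6.57% of all genes, and 22 of the 75 neighbours outside the blocks were called. The members named by the rule were in the TraesCS1B02G449000 run, where the interaction on the log2 scale was 1.65 in TraesCS1B02G449000, 2.02 in TraesCS1B02G449100, 2.65 in TraesCS1B02G449200, 1.96 in TraesCS1B02G449300 and 2.22 in TraesCS1B02G449400. In the TraesCS1D02G412800 run it was 4.46 in TraesCS1D02G412800, 3.26 in TraesCS1D02G413200, 4.93 in TraesCS1D02G413300 and 4.17 in TraesCS1D02G413400. The mean level of that run in the CO2+temperature+drought libraries was 0.53, 3.08 and 4.90 on the log2(FPKM + 1) scale. The SD was 2.19 there, 0.27 in CO2+temperature, 0.30 in CO2+drought and 0.15 in CO2, and the fit pooled the spread over groups. The mean was 2.76 in CO2 but 1.28 in CO2+temperature, which left less room for a fall with drought. In the second 1D block the interaction was 0.46 in TraesCS1D02G426000, 2.47 in TraesCS1D02G426700, 3.04 in TraesCS1D02G426800 and 2.43 in TraesCS1D02G427000. It was negative in TraesCS1B02G451100, at -1.31, and in TraesCS1B02G451900, at -1.43. Rescaled, TraesCS1D02G426000 was not called (limma, Benjamini-Hochberg adjusted p = 0.32), and 20 members were called in all, 16 positive and 4 negative (9.67% and 10.9% of all genes). The call of TraesCS1D02G426000 was also lost without any 1 of 6 of the 12 libraries compared. That of TraesCS1D02G413200 was lost without CO2+temperature replicate 1 (limma, Benjamini-Hochberg adjusted p = 0.053), and that of TraesCS1B02G451900 without CO2+drought replicate 2.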

How the results depend on the processing

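With library quality weights the number of members called was 47 in CO2+drought against CO2 (70.6% of all genes), 41 in CO2+temperature+drought against CO2+temperature (61%), 52 in CO2+temperature+drought against CO2+drought (90.5%), 29 in CO2+temperature against temperature (40.2%), 32 in CO2+temperature against CO2 (48.4%) and 39 for the interaction (66.2%), and the weights did not fully converge. Calls thus rose over all genes as well. A fit restricted to the 6 libraries compared called 32 in CO2+temperature against CO2 (36.1% of all genes). With a pseudocount of 0.1, the median difference of temperature+drought to control was -3.11 in the 1A block, -1.11 in the 1B block, -3.22 in the first 1D block and -1.55 in the second, and rescaled it was -0.63 in the 1B block and -0.98 in the second 1D block. The cause of these shifts was not tested, except that a smaller pseudocount widens differences of low genes by construction.

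Leaving out 1 library at a time, that median difference ranged from -2.17 to -1.77 in the 1A block, from -0.83 to -0.68 in the 1B block, from -1.34 to -1.14 in the first 1D block and from -1.19 to -1.10 in the second. Members called ranged from 36 to 40 in CO2+drought against drought, 22 to 30 in CO2+drought against CO2, 12 to 26 in CO2+temperature+drought against CO2+temperature (26 without CO2+temperature+drought replicate 3), 26 to 35 in CO2+temperature+drought against CO2+drought, 5 to 9 in CO2+temperature against temperature, 9 to 13 in CO2+temperature against CO2 and 18 to 25 for the interaction. Of all 45359 genes, rises in the drought comparisons ranged in order from 4775 to 5459, 1943 to 2607, 3540 to 5250 and 14313 to 15892. Their falls ranged from 14142 to 14741, 11457 to 12470, 4352 to 5374 and 5342 to 6161. In the comparisons without drought and the interaction, rises ranged from 2352 to 2918, 3082 to 3280 and 8210 to 10544. Falls there ranged from 2120 to 2635, 4353 to 4771 and 2417 to 3185. No called value of a named member, and no block median of temperature+drought against control, changed direction under the alternatives run. Some medians of the tested comparisons did. For the 1A run, the interaction median of 0.22 was -0.34 without CO2+temperature+drought replicate 3 and -0.08 without CO2+drought replicate 1, and the median of 0.13 in CO2+temperature against temperature was -0.04 without CO2+temperature replicate 1 and -0.27 without temperature replicate 1. For the second 1B run, the interaction median of -0.04 was 0.02 to 0.19 without any 1 of 5 libraries. Rescaled, the median of the second 1D block in CO2+temperature+drought against CO2+drought was -0.03 (0.17 as deposited), and the interaction median of the 1A block was -0.01 (0.14 as deposited).

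Of the 97 calls of named members, 12 were lost after rescaling, 13 in such restricted fits, 5 with no filter and 5 with the pseudocount of 0.1. Leaving out 1 library kept 610 of 672. With the replicate number as a block, 41 members were called in CO2+drought against drought and 16 in CO2+temperature+drought against CO2+temperature, and all 97 named calls were kept. Of all 45359 genes, 5818 rose and 16487 fell in the former, and 4955 rose and 5547 fell in the latter. Same-numbered libraries deviated together with correlations from -0.285 to 0.438, so the numbers were not taken as pairs. Unknown depth and low levels limit the second 1B run, where most members lay under 4 FPKM.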
